A study of Mus musculus with 10 samples.

Results

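The endocannabinoid system of the mouse nucleus accumbens shell was examined through 8 genes: Cnr1, which encodes the cannabinoid receptor CB1, the diacylglycerol lipase genes Dagla and Daglb, the hydrolase genes Mgll, Abhd6 and Abhd12, and Napepld and Faah, which make and break down anandamide. They were chosen by symbol, and all 8 were among the 20483 genes of the deposited table of gene levels. All 8 also met the filter on low values, a TPM (transcript abundance corrected for gene length and scaled to a library total of 1000000) of at least 1 in at least 5 samples, as did 15596 genes in all. The nucleus accumbens forms the ventral striatum, and the study asks how its subregions differ in reward processing. Lateral shell (n = 5 libraries) was compared with medial shell (n = 5 libraries), all from wild-type (WT) mice, with complementary DNA made by Geo-seq, in which small pieces of a section are cut out with a laser and their RNA is amplified. The sample titles number the libraries of each region as biological replicates 1 to 5. The labels name the cells only as mouse neural cells and give no age, strain or treatment. Whether each library came from its own animal is not stated, so p-values reflect variation among libraries that may be technical.

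CB1 is a presynaptic receptor coupled to inhibitory G proteins, and its activation lowers transmitter release. Its main brain ligand, 2-arachidonoylglycerol (2-AG), is made in postsynaptic neurons by diacylglycerol lipases, chiefly DAGLα, and travels backwards across the synapse. Monoacylglycerol lipase, the product of Mgll, removes most of it in axon terminals and astrocytes, while ABHD6 and ABHD12 hydrolyse the remainder. Anandamide, the other ligand, is released from a membrane precursor by NAPE-PLD and hydrolysed by FAAH in postsynaptic cells. In the striatum CB1 transcripts are made by spiny projection neurons and GABAergic interneurons. CB1 on the terminals of cortical axons derives from transcripts in cortical cell bodies, which lie outside the captured tissue.

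One of the 8 genes passed the threshold of an adjusted p under 0.05 over all genes tested. Mgll was higher in the medial shell, at 103 ± 4.30 TPM (SD, n = 5) against 61.9 ± 8.57 TPM (SD, n = 5) in the lateral shell. Cnr1 and Dagla had means that were 2.08 and 1.81 times as high in lateral as in medial libraries and did not pass. Abhd12, the most abundant of the 8, had nearly equal means of 137 and 138 TPM. Over all genes 1.48% passed, 0.385% higher in lateral and 1.1% higher in medial, so 1 call among 8 genes is a result about Mgll and not about the group. At an unadjusted p under 0.05 there were 3 of the 8 genes, Mgll, Cnr1 and Dagla, where 15.4% of all tested genes reached that level. Of the 8 log2 fold changes (lateral minus medial, computed from log2(TPM + 1)) 5 were below 0, as were 68.7% of those of all genes. Their median was -0.16 beside -0.21 over all tested genes.

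The promoter of Mgll, the gene that passed, and that of Cnr1, the receptor gene, are shown so that the loci measured can be seen. Each window runs from 250 bases before to 50 bases after an annotated start in RefSeq on GRCm38.p6, 5′ to 3′ on the strand of the gene, which is plus for both. The Mgll window lies at chr6:88724162-88724461 and the Cnr1 window at chr4:33924014-33924313. RefSeq gives Mgll 2 such windows and Cnr1 3, of which the first of each is printed, and that of Cnr1 ends upstream of its GENCODE M21 start. Capitals mark the GC box, GGGCGG, or its reverse complement CCGCCC.
Mgll: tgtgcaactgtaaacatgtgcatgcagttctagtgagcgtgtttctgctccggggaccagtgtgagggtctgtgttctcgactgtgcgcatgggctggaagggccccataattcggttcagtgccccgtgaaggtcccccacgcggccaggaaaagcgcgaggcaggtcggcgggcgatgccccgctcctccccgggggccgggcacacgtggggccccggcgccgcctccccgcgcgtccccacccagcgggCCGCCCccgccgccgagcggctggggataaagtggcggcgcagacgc
Cnr1: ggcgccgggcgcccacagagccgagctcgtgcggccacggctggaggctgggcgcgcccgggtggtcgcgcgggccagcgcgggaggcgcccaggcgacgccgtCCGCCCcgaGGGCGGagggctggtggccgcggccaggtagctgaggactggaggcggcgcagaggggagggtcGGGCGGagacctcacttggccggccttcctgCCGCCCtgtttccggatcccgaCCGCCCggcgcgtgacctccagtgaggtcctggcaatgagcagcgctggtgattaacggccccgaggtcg
The Cnr1 window held 5 GC boxes, all upstream of the start, and the Mgll window held 1, just downstream of it. GC boxes were present in 35.7% of the 32851 promoter windows searched on both strands. The Mgll window also held the E-box letters CACGTG, 44 bases before the start, which 7.15% of windows held. TATAAA (13.6% of windows), CCAAT (37.4%) and TGACG (20.8%) were searched on both strands too and are not in these windows. Both windows were rich in G and C, at 70.0% for Mgll and 76.3% for Cnr1, where the median window had 52.7%. RefSeq windows, 10 in all, were matched for 6 of the 8 genes, and 4 of those 6 had a GC box in at least 1 window. That count is by gene and the 35.7% is by window, so they are not alike. A match describes letters only and is not a binding site.

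Mgll spans chromosome 6, 88724412 to 88828360 on the plus strand (GRCm38, GENCODE M21). Lateral replicates 1 to 5 were at 49.4, 73.1, 63.5, 59.6 and 63.8 TPM. Medial replicates 1 to 5 were at 106, 96.5, 108, 103 and 103 TPM. All 5 medial libraries lay above all 5 lateral ones, a separation in that direction that 3.39% of the genes tested had (4.25% in either direction). The medial libraries were close together, and lateral replicate 1 was the lowest of the 10. Mean TPM was 1.67 times as high in medial as in lateral libraries, with a log2 fold change of -0.74 and a standard error of 0.14 (95% interval -1.05 to -0.43, limma adjusted p = 0.0264). By its p-value Mgll was the 109th of the 15596 genes.

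**Figure D1:**
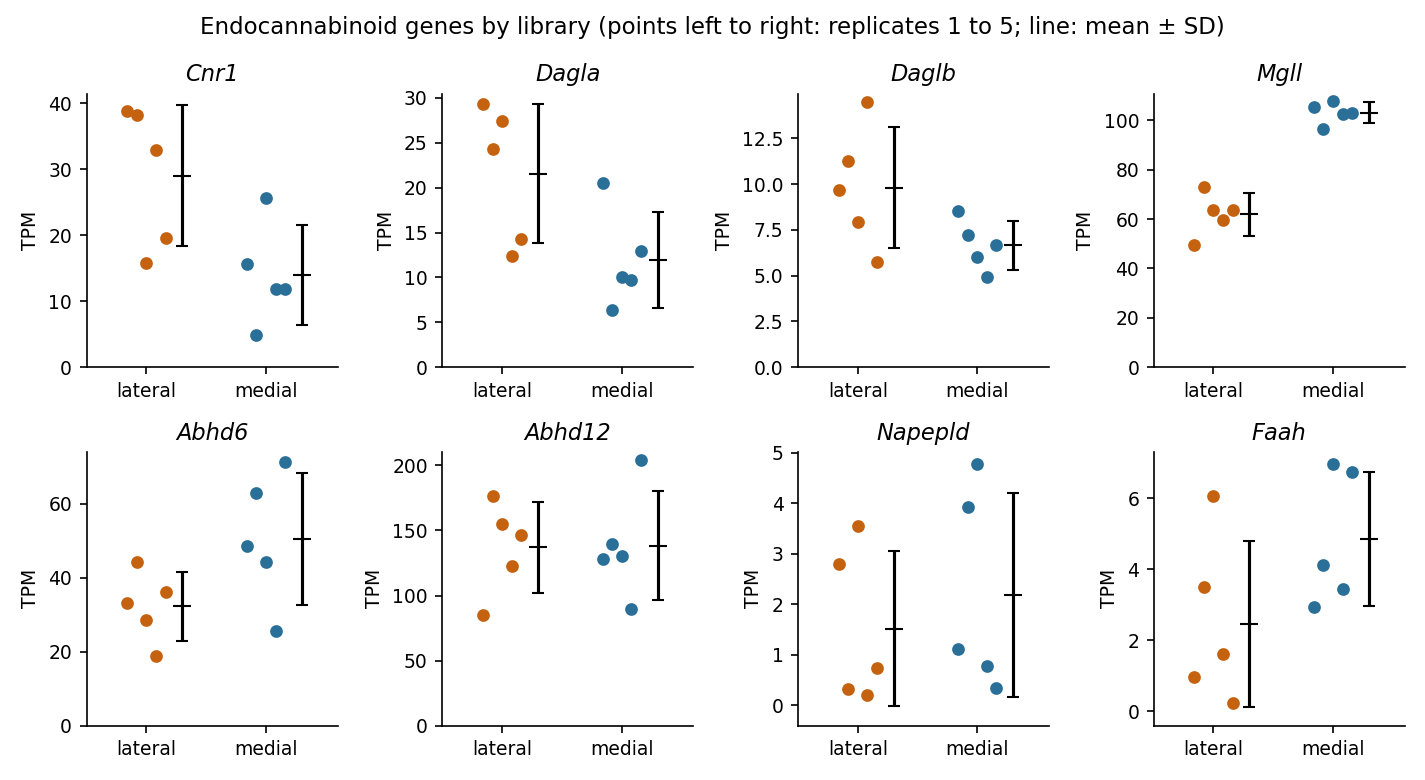
Level of each of the 8 genes in TPM (y axis, linear) in the 5 lateral and 5 medial libraries, with points for replicates 1 to 5 from left to right and a line for the mean ± SD. Mgll is the gene whose medial values, 96.5 to 108 TPM, all lie above its lateral values, 49.4 to 73.1 TPM.

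The within-region spread of Mgll was small, with a coefficient of variation of 4.17% in medial and 13.8% in lateral libraries. Its within-region SD on the log2 scale was 0.15, where the median of the 1658 tested genes with means within 2-fold of Mgll was 0.33. Of those genes 1.57% had a smaller SD. The call depended on the variance model and on the libraries included. It was lost without lateral replicate 1, 4 or 5 or any of medial replicates 2 to 5 (limma adjusted p from 0.0506 to 0.0662), without a mean-variance trend (0.0976), and without lateral replicate 5 and medial replicate 2 together (0.123). Scaling by median ratios gave an adjusted p of 0.0954 and quantile normalization 0.0583, with log2 fold changes of -0.53 and -0.65. The regions did not overlap under either scaling, at 51.6 to 70.0 against 79.6 to 108 on the median-ratio scale and 49.5 to 72.1 against 80.9 to 118 on the quantile scale. Those scalings moved the median of all tested genes from -0.207 to -0.025 and -0.002. Relative to that median Mgll stood at -0.531 as reported, -0.504 with median ratios and -0.648 with quantile normalization.

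**Figure D2:**
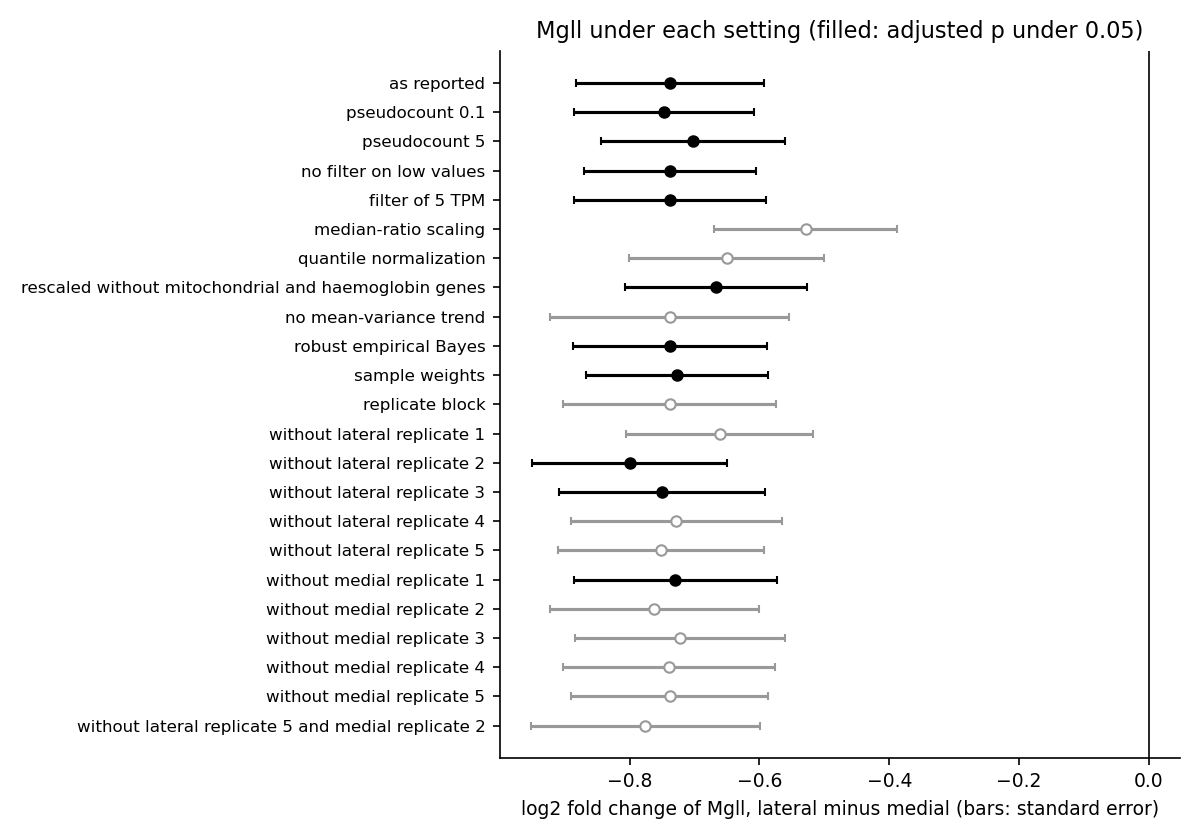
Log2 fold change of Mgll (x axis, lateral minus medial, bars are standard errors) under the reported fit and 22 alternatives (y axis), with filled points where the adjusted p is under 0.05. Every value lies between -0.80 and -0.53, and 10 of the 22 alternatives pass.

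Cnr1 spans chromosome 4, 33924593 to 33948831 on the plus strand. Its lateral values were 38.7, 38.2, 15.8, 32.9 and 19.6 TPM for replicates 1 to 5. Medial replicates 1 to 5 were at 15.6, 4.89, 25.6, 11.8 and 11.8 TPM. Lateral replicates 1, 2 and 4 were above every medial library, while lateral replicates 3 and 5 fell within the medial range. The difference was 1.08 on the log2 scale (standard error 0.38, 95% interval 0.27 to 1.89, limma adjusted p = 0.191), so the receptor transcript did not pass over all genes. It did not pass in any of 22 alternatives, whose log2 fold changes ran from 0.79 to 1.33, the lowest being that without medial replicate 2.

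Dagla and Daglb make 2-AG from diacylglycerol. Dagla (chromosome 19, 10245265 to 10304877, minus strand) was at 29.3, 24.3, 27.5, 12.4 and 14.3 TPM in lateral replicates 1 to 5. It was at 20.5, 6.33, 10.04, 9.76 and 12.9 TPM in medial replicates 1 to 5. Lateral replicates 1 to 3 were above every medial library, and lateral replicates 4 and 5 lay within the medial range. The difference on the log2 scale was 0.82 (standard error 0.33, 95% interval 0.12 to 1.52, limma adjusted p = 0.251).

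Daglb (chromosome 5, 143464584 to 143505942, plus strand) was lower than Dagla in 4 of 5 libraries of each region. It ranged from 5.73 to 14.5 TPM in lateral and from 4.93 to 8.54 TPM in medial libraries, and the ranges overlapped. Its log2 fold change was 0.46 (95% interval -0.16 to 1.07, limma adjusted p = 0.472). Daglb shares 2309 exonic bases with Rac1 on the other strand, a gene at 94.3 and 96.6 TPM in lateral and medial libraries. The sources used here do not say whether counting used strand, so reads from the shared stretch cannot be assigned with certainty.

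Abhd6 and Abhd12 encode serine hydrolases of the membrane that also cleave 2-AG, ABHD6 mainly in postsynaptic neurons and ABHD12 strongly in microglia. Abhd6 (chromosome 14, 8002902 to 8056763, plus strand) was at 33.3, 44.2, 28.7, 18.8 and 36.1 TPM in lateral replicates 1 to 5. In medial replicates 1 to 5 it was at 48.5, 62.9, 44.1, 25.5 and 71.4 TPM. Medial replicates 1, 2 and 5 were above every lateral library, and medial replicate 4 was below 4 of the 5 lateral ones. The log2 fold change was -0.60 (95% interval -1.22 to 0.01, limma adjusted p = 0.334), close in size to that of Mgll but with an SD within regions of 0.51 on the log2 scale.

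Abhd12 (chromosome 2, 150832493 to 150904741, minus strand) ranged from 85.0 to 176 TPM in lateral libraries and from 89.3 to 204 TPM in medial libraries. The regions overlapped over nearly their whole range. Its log2 fold change was -0.01 with a 95% interval of -0.51 to 0.50 (limma adjusted p = 0.995), and its sign changed under 8 of 22 alternatives, none of which passed. Microglia markers as a list were higher in lateral libraries, with summed levels of 426 to 666 TPM against 202 to 432 TPM in medial ones, while Abhd12 was level. The part of microglia in its level was not tested.

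**Figure D3:**
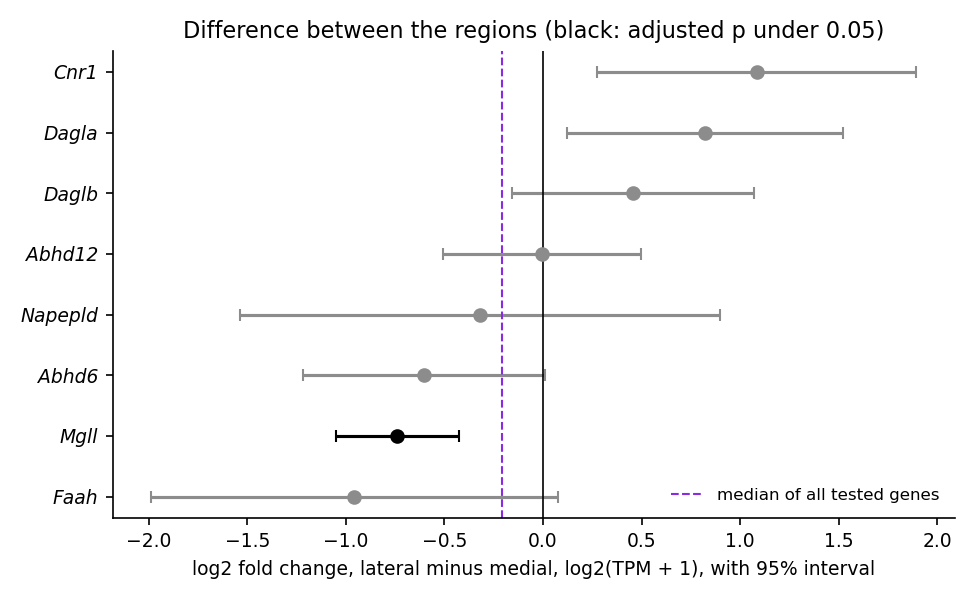
Log2 fold change of each gene on the log2(TPM + 1) scale (x axis, lateral minus medial) with its 95% interval, and the median of all tested genes, -0.21, as a dashed line. Mgll, in black, is the gene that passed, with an interval of -1.05 to -0.43.

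The anandamide genes were the lowest of the 8 in both regions. Faah (chromosome 4, 115967145 to 116017926, minus strand) was at 0.959, 3.49, 6.06, 1.62 and 0.231 TPM in lateral replicates 1 to 5. Medial replicates 1 to 5 were at 2.93, 4.12, 6.97, 3.46 and 6.75 TPM. Lateral replicates 1, 4 and 5 were below every medial library, and lateral replicate 3 was exceeded by medial replicates 3 and 5 alone. The log2 fold change of -0.96 had a wide 95% interval of -1.99 to 0.07 (limma adjusted p = 0.363).

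Napepld (chromosome 5, 21662901 to 21701396, minus strand) was at 2.80, 0.317, 3.54, 0.206 and 0.744 TPM in lateral replicates 1 to 5. It was at 1.12, 3.93, 4.78, 0.781 and 0.351 TPM in medial replicates 1 to 5. High and low libraries occurred in both regions. It met the filter in exactly 5 libraries, the least that the filter allows. Its log2 fold change was -0.32 with a 95% interval of -1.54 to 0.90 (limma adjusted p = 0.831). On that scale the interval covers more than 2-fold higher in medial libraries, but in the lateral direction stays under 2-fold. These bounds depend on the pseudocount of 1 and do not limit the difference in TPM. With a pseudocount of 0.1 the log2 fold change was -0.61 and its standard error 1.01, where it was 0.56 as reported. TPM keeps no sequencing depth, so how many reads stand behind such low values is unknown.

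The order of mean levels, in TPM and so per length, was shared by the regions, though not by every library. In lateral libraries the means ran from Abhd12 (137 TPM) through Mgll (61.9), Abhd6 (32.2), Cnr1 (29.0), Dagla (21.6), Daglb (9.81) and Faah (2.47) to Napepld (1.52). The medial order was the same, with means of 138, 103, 50.5, 13.9, 11.9, 6.67, 4.84 and 2.19 TPM. Abhd12 was above Mgll in 5 of 5 lateral libraries with no overlap of their ranges, and in 4 of 5 medial libraries with overlap. Mgll was above Abhd6 in every library without overlap within a region. Abhd6 and Cnr1 did not separate in lateral libraries, where the order held in 3 of 5, and Cnr1 and Dagla did not separate in medial ones, where it held in 2 of 5. Faah and Napepld overlapped in both regions. Over both regions Abhd12 and Mgll had means above those of 96.3% and 93.6% of the tested genes, and Faah and Napepld above those of 20.9% and 5.28%.

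Ratios within a library do not depend on the scaling between libraries. They were chosen after the values were seen and are given with no test. The ratio of Mgll to the sum of Dagla and Daglb was 1.26, 2.05, 1.80, 2.22 and 3.18 in lateral replicates 1 to 5. In medial replicates 1 to 5 it was 3.64, 7.13, 6.73, 6.99 and 5.26. The lowest medial ratio was above the highest lateral one, and medial replicate 1, with the most Dagla of the medial libraries, was nearest to the lateral range. The summed level of the hydrolase genes Mgll, Abhd6 and Abhd12 overlapped between regions, at 168 to 294 TPM in lateral and 218 to 379 TPM in medial libraries. Mgll made up 24.9% to 29.7% of that sum in lateral and 27.2% to 47.2% in medial libraries. Dagla plus Daglb came to 20.1 to 39.0 TPM in lateral and 13.5 to 29.0 TPM in medial libraries. Cnr1 relative to Mgll was 0.248 to 0.785 in lateral and 0.0507 to 0.237 in medial libraries, ranges that met closely without overlap.

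**Figure D4:**
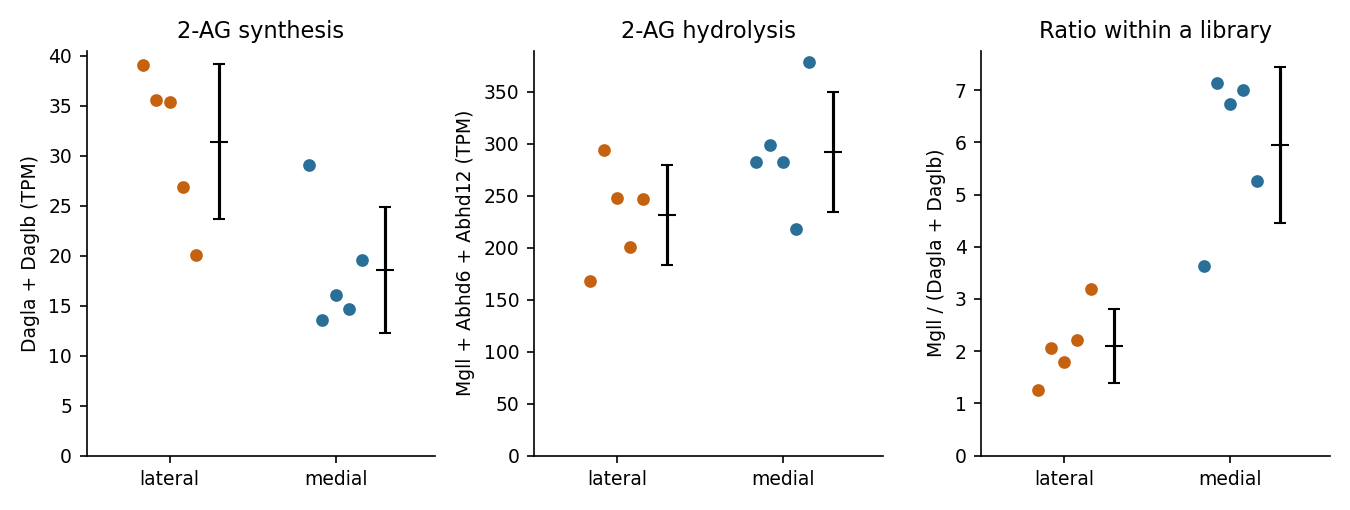
Summed TPM of the 2-AG synthesis genes, summed TPM of the 2-AG hydrolysis genes, and the ratio of Mgll to the synthesis genes (y axes, linear) in each library by region, with the mean ± SD. The sums overlap between regions, and the ratio is 1.26 to 3.18 in lateral and 3.64 to 7.13 in medial libraries.

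The captured tissue carried the defining transcripts of striatal spiny projection neurons, whose 12 markers summed to 4152 to 6208 TPM in lateral and 4660 to 6992 TPM in medial libraries. Much of that sum was Penk. Of the 12 markers 1 passed, where 1.48% of all tested genes did. It was Gad2, a GABA-synthesizing enzyme gene, at 187 ± 24.3 TPM against 350 ± 53.2 TPM in the medial shell (limma adjusted p = 0.0133). Its values did not overlap, a separation in that direction that 3.39% of tested genes had. The call was lost without a mean-variance trend (0.0649) and without lateral replicate 5 and medial replicate 2 together (0.0697). An unadjusted p under 0.05 was reached by 4 of the 12, beside 15.4% of all tested genes. Gad2, Tac1 and Pdyn of these were higher in medial libraries and Ppp1r1b in lateral ones. The 3 markers of glutamatergic cortical or thalamic neurons analysed summed to at most 3.31 TPM in any library. Between 23.5% and 35.3% of a library was mitochondrially encoded. Lateral replicate 5 and medial replicate 2 stood apart in having 1.38 and 1.42 TPM of the transcript AY036118, which the other libraries held at 82500 to 144300 TPM. In bulk tissue, fewer cells of a type and less RNA per cell cannot be told apart.

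Markers of GABAergic interneurons, oligodendrocytes and microglia had higher mean sums in lateral libraries. Interneuron markers summed to 486 to 5626 TPM in lateral libraries and to 28.2 to 1709 TPM in medial ones. By mean TPM most of that sum was Sst and Npy (1146 and 1258 in lateral, 191 and 200 in medial libraries). Of 7 tested interneuron markers 6 had log2 fold changes above 0, where 68.7% of all tested genes were below 0. Oligodendrocyte markers summed to 310 to 1037 TPM and 113 to 514 TPM, with 9 of 10 above 0. Of the microglia markers 10 of 10 were above 0 and 3 passed, C1qa, Tmem119 and Ctss. Over all tested genes 0.385% passed higher in lateral. No tested marker of the interneuron and oligodendrocyte lists passed. All 3 microglia calls ended on leaving out lateral replicate 1, 2, 4 or 5 or medial replicate 2, 4 or 5, and those of C1qa and Tmem119 also without lateral replicate 3 (limma adjusted p up to 0.103). In the order C1qa, Tmem119 and Ctss, they were also lost without a mean-variance trend (0.0958, 0.0638 and 0.0998) and with a replicate block (0.0598, 0.0977 and 0.104). Those of Tmem119 and Ctss were lost with a pseudocount of 0.1 (0.0530 and 0.0526) and without a filter (0.0575 and 0.0550) too. Sums of cholinergic interneuron markers (5.79 to 224 and 9.57 to 179 TPM) and of endothelial and mural markers (224 to 521 and 212 to 390 TPM) overlapped over most of their range. The part of these cells in the levels of Cnr1 was not tested, and the values stand side by side as follows. Lateral replicate 3, with the highest interneuron sum (5626 TPM), had the lowest lateral Cnr1 (15.8 TPM). Lateral replicate 2, with the lowest lateral sum (486 TPM), had 38.2 TPM of Cnr1. Lateral replicate 1, with a sum of 2989 TPM, had the highest Cnr1 (38.7 TPM). Among medial libraries replicate 3 had the most Cnr1 (25.6 TPM) at a sum of 64.2 TPM. Medial replicate 2, with the lowest sum of all (28.2 TPM), had the lowest Cnr1 (4.89 TPM). Astrocytes also make Mgll, and their markers summed to 941 to 1254 TPM in lateral libraries and 1003 to 1398 TPM in medial ones. By mean TPM most of that sum was Aldoc and Slc1a2 (421 and 323 in lateral, 483 and 347 in medial libraries). Of the 10 markers 7 were below 0, near the 68.7% of all tested genes. An unadjusted p under 0.05 was reached by 5 of 10, beside 15.4% of all tested genes. Gja1, Slc1a3 and Gjb6 of these were higher in medial libraries, Gfap and S100b in lateral ones, and none passed. The astrocyte sums were 1254, 1031, 943, 1006 and 941 TPM in lateral replicates 1 to 5. In medial replicates 1 to 5 they were 1003, 1145, 1202, 1114 and 1398 TPM. The Mgll values of the same libraries are given above. The part of astrocytes in the Mgll difference was not tested.

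**Figure D5:**
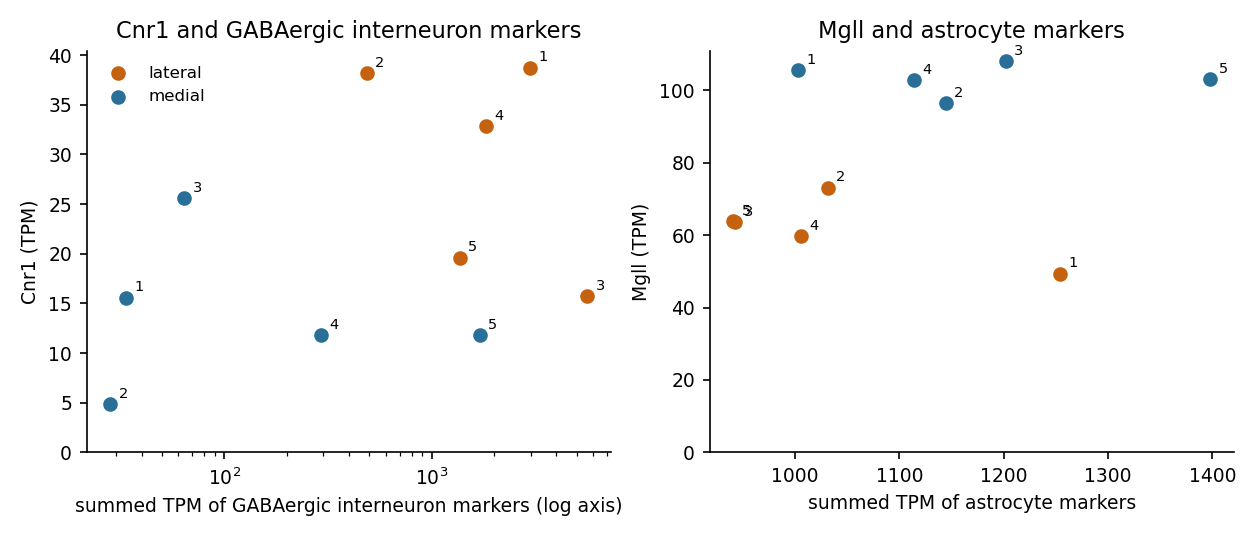
Cnr1 level (y axis, TPM) against the summed TPM of 9 GABAergic interneuron markers (x axis, log scale), and Mgll level against the summed TPM of 10 astrocyte markers (x axis, linear), one numbered point per library. Mgll is at 49.4 to 73.1 TPM in lateral libraries, with astrocyte sums of 941 to 1254 TPM. In medial libraries it is at 96.5 to 108 TPM, with astrocyte sums of 1003 to 1398 TPM.

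Other genes of the pathway were read from fixed lists by role, and 1 of their 40 tested members passed, where 1.48% of all tested genes did. The gene that passed was Fabp7, of the 6 carriers and oxidizing enzymes, which encodes a fatty acid binding protein of astrocytes and progenitors that can carry anandamide. It was at 44.6, 13.2, 46.0, 10.3 and 25.6 TPM in lateral and at 57.6, 121, 102, 65.4 and 106 TPM in medial replicates 1 to 5, without overlap. Its difference on the log2 scale was -1.83 (limma adjusted p = 0.0349; standard error 0.39). That call ended on leaving out medial replicate 2, 3, 4 or 5 or lateral replicate 2, 4 or 5 (adjusted p from 0.0635 to 0.0989) and without lateral replicate 5 and medial replicate 2 together (0.165). It was also lost with a pseudocount of 0.1 (0.0512), without a filter (0.0528), under median-ratio scaling (0.0633) and without a mean-variance trend (0.0806). Fabp5, another carrier, was at 44.9 ± 7.38 TPM against 74.3 ± 14.0 TPM in the medial shell without overlap, and did not pass (log2 fold change -0.71, limma adjusted p = 0.0751). The cytochrome P450 gene Cyp2d22 was at 7.71 ± 5.28 and 16.5 ± 6.04 TPM (adjusted p = 0.236). Of the 6 genes of this list 4 had an unadjusted p under 0.05, where 15.4% of all tested genes did. The median log2 fold change of this list was -0.66, beside -0.21 over all genes.

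No tested member of the other lists passed. Of the 11 genes for Gq-coupled drive of 2-AG production, the route from metabotropic glutamate and muscarinic receptors through phospholipase C, 2 had an unadjusted p under 0.05, near the 15.4% of all tested genes. Plcb4, a phospholipase C gene, was at 5.02 to 12.6 TPM in lateral and at most 3.804 TPM in medial libraries, a separation in the lateral direction that 0.859% of tested genes had (log2 fold change 1.29, limma adjusted p = 0.115). Homer1, a scaffold of metabotropic glutamate receptors, was at 44.7 ± 13.6 and 29.1 ± 8.67 TPM (adjusted p = 0.305). The list had a median log2 fold change of 0.20 beside -0.21 over all genes.

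Among 14 CB1 effectors, G-protein subunits, channels, adenylyl cyclase and arrestins, 3 had an unadjusted p under 0.05, near the 15.4% of all tested genes, and the median log2 fold change was -0.29 beside -0.21 over all. Adcy5, the main striatal adenylyl cyclase, had 184 ± 35.6 TPM in the lateral shell against 131 ± 25.2 TPM (log2 fold change 0.49, limma adjusted p = 0.203). Arrb1, encoding a β-arrestin, was at 13.0 ± 14.7 and 35.0 ± 9.76 TPM (log2 fold change -2.20, adjusted p = 0.148). The receptor partners Cnrip1, which binds the tail of CB1, and Sgip1, which slows its internalization, had log2 fold changes of -0.29 (adjusted p = 0.632) and -0.44 (adjusted p = 0.448). Of the 9 listed receptors and partners 7 were not analysed here. Among 7 other N-acylethanolamine enzymes, 2 had an unadjusted p under 0.05, where 15.4% of all tested genes did. Gdpd1, a lysophospholipase D, had a log2 fold change of -0.61 (adjusted p = 0.251). Inpp5d, a phosphatase of blood and microglial cells, was at 3.20 ± 1.78 and 1.03 ± 2.02 TPM (adjusted p = 0.274).

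The genes whose levels were most like those of Cnr1 over the 10 libraries were Ppp1r16a, Rnase4, Ppp1r14a, Selenom and Hist1h4h, with likeness measured as Pearson's r of log2(TPM + 1). Their r with Cnr1 was 0.92, 0.92, 0.91, 0.91 and 0.90, the highest of 10883 genes compared. The libraries share region and processing, and with 10 libraries and so many genes these values only describe the pattern. Selenom, a selenoprotein gene, was at 106, 130, 55.5, 93.9 and 76.8 TPM in lateral and 42.8, 29.6, 57.6, 45.6 and 58.9 TPM in medial replicates 1 to 5. As with Cnr1, lateral replicate 3 was the lowest lateral library and medial replicate 2 the lowest of all. None of the 5 passed as reported, while Selenom did in 4 of 22 alternatives: median-ratio scaling (limma adjusted p = 0.0286), quantile normalization (0.0391), rescaling without mitochondrial and haemoglobin genes (0.0401) and leaving out lateral replicate 3 (0.0415).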

How the data were processed

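The authors deposited 1 table of TPM by gene symbol, transcript abundances scaled for gene length and to 1000000 per sample, 1 column for each library. Tools listed, without roles, in the submitters' processing notes are featureCounts 1.6.3, StringTie 1.3.4, fastp 0.20.0 and HISAT2 2.1.0, with mm10 (GRCm38) as the build. Annotation, strand and filters: not given in the sources used here. TPM keeps no depth, so counting error is unknown and an abundant gene lowers all others.

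Region differences came from limma 3.58.1 under R 4.3.3 (empirical Bayes with a mean-variance trend) on log2(TPM + 1), with Benjamini-Hochberg adjustment over the 15596 genes of at least 1 TPM in at least 5 samples. In simulated data with independent noise, the fit recovered 50.7% of log2 changes of 1 set in higher-level genes, and 90.9% of changes of 2. Of 168 calls there 9 were false. Fold changes on this scale understate differences of low genes. The 8 genes and the lists were chosen with earlier results of these data known, and no p was adjusted over a list. The text names all 8 genes, from each other pathway list those that passed and up to 2 more with the smallest p, and the 5 genes most like Cnr1 with a mean of at least 5 TPM. All 20483 symbols occur in GENCODE M21, used for coordinates and overlaps. Mgll shares 167 exonic bases with the antisense gene Gm26588, at 1.65 and 2.28 TPM in lateral and medial libraries. Alternatives changed the pseudocount, the filter, the scaling, the variance model, the replicate block and the samples included.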

Additional observations from a re-analysis of the deposited data

Results flagged for a closer look

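Inpp5d stood out within the medial libraries, with medial replicate 1 at 4.62 TPM and the next highest at 0.528 TPM, a gap of 88.6% of the range of that group. It was 1 of 56 groups of 5 libraries examined in this way over 28 named genes, and chance flags about 1 in 20.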

How the results depend on the processing

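The direction of Mgll was lower in lateral libraries in all 22 alternatives, from -0.80 to -0.53 on the log2 scale, and 10 of them passed. The number of the 8 genes that passed was 0 under median-ratio scaling, quantile normalization, without a mean-variance trend and with the replicate block, and 0 to 1 without single libraries. Genes higher in medial numbered 171 as reported, 107 with a pseudocount of 0.1, 82 under median-ratio scaling, 99 under quantile normalization and 111 without a trend. Genes higher in lateral numbered 60 as reported, 88 under median-ratio scaling, 86 under quantile normalization and 34 without a trend. Without single libraries they ran from 23 to 69 in lateral and from 56 to 188 in medial. Without lateral replicate 5 and medial replicate 2 together they were 12 and 31, and 0 of the 8 genes passed. Of all calls 74.0% were higher in medial, against 48.2% under median-ratio scaling and 53.5% under quantile normalization.

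Same-numbered replicates did not deviate together over all tested genes (correlations of -0.05 to 0.04). Such correlations cannot exclude a shared animal or section, so whether the numbers pair the samples is unknown. A replicate block left 19 genes higher in lateral and 45 in medial, and 0 of the 8 genes (Mgll adjusted p = 0.0931, Fabp7 0.0705). The log2 fold change of Abhd12, -0.01, was 0.21 under median-ratio scaling, 0.072 under quantile normalization, 0.069 after rescaling without mitochondrial and haemoglobin genes, 0.064 with sample weights, and -0.15 to 0.16 without single libraries. Napepld missed the filter in 7 alternatives and Faah in 1, which gave no value. The cause of the changes was not tested.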

Other observations

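Arrb1, the β-arrestin gene, split within the lateral shell. Lateral replicates 1, 2 and 4 were at 1.81, 4.83 and 0.785 TPM, and lateral replicates 3 and 5 at 32.1 and 25.6 TPM, next to medial libraries at 26.9 to 51.7 TPM. Lateral replicates 1, 2 and 4 were also those with the highest Cnr1, at 38.7, 38.2 and 32.9 TPM. This coincidence was noticed after the values were seen and was not tested.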
